A study of Mus musculus with 9 samples.

Results

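The genes examined were 38 genes of the cell cycle and of mitosis, chosen by symbol from the 54532 genes counted in mouse heart RNA, and all 38 were found. The rule that selects them uses gene names and no measured value, although the genes were picked with earlier results of these data known. By role, 7 act in G1 and at the G1/S step, 12 in replication licensing and DNA synthesis, 8 are G2/M cyclins, kinases and their activators, 9 act at the spindle, the kinetochore and mitotic exit, and 2 (Mki67 and Top2a) are general markers of proliferation. The hearts came from C57BL/6J males, labelled WT, that were 8 to 10 weeks old. The study states that every group received either drug or saline by the tail vein. In the sham group (3 mice) the chest was opened and a thread was passed under the left anterior descending coronary artery without being tied. In the MIRI group (3 mice) this artery was tied for 30 min and reperfused for 24 h, and saline was given by the tail vein. The GXNI group (3 mice) had the same ischemia and reperfusion and received Guanxinning injection, an extract of Danshen and Chuanxiong, at 9 mL/kg by the same route within 10 min of ischemia. The MIRI and GXNI hearts are together called reperfused below. RNA was taken from heart tissue, although the labels also name cardiomyocytes as the cell type. Markers of cardiomyocytes, endothelial cells, fibroblasts and macrophages were all counted in each library.

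A dividing cell passes from G1 into S phase when D- and E-type cyclins activate their kinases and release E2F factors, whose targets include the MCM helicase, PCNA and the enzymes of nucleotide synthesis. Cyclin A, cyclin B and CDK1 then drive G2 and mitosis, and the anaphase-promoting complex, activated by CDC20, ends it. The cyclin-dependent kinase inhibitor p21, encoded by Cdkn1a, is induced by p53 and holds cells in G1. Adult cardiomyocytes rarely divide, and the heart also holds endothelial cells, fibroblasts and macrophages that can.

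The upstream sequences of 6 genes are shown because these genes follow different courses below. Mki67, Top2a, Cdk1 and Ccnb2 were lower in every reperfused heart, whereas Cenpf and Cdkn1a differed widely among the reperfused hearts. Each is the stretch of 250 bases before a RefSeq gene start in GRCm38.p6, written in the direction of the gene. The stretches lie at chr7:135716380-135716629 (reverse strand) for Mki67, chr11:99024190-99024439 (reverse strand) for Top2a, chr10:69352913-69353162 (reverse strand) for Cdk1, chr9:70421555-70421804 (reverse strand) for Ccnb2, chr1:189688087-189688336 (reverse strand) for Cenpf and chr17:29090729-29090978 (forward strand) for Cdkn1a. Capitals mark matches on either strand to the cell cycle homology region CHR (TTTGAA or TTCGAA), to CCAAT, to an E2F site (TTTCCCGC, TTTCGCGC, TTTGCCGC or TTTGGCGC) and to the p53 decamer motif, and no 2 marked matches overlap.
Mki67: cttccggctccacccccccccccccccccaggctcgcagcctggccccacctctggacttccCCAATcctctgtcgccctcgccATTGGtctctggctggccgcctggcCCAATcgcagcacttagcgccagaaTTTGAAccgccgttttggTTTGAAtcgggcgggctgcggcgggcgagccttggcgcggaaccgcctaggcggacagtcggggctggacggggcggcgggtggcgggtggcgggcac
Top2a: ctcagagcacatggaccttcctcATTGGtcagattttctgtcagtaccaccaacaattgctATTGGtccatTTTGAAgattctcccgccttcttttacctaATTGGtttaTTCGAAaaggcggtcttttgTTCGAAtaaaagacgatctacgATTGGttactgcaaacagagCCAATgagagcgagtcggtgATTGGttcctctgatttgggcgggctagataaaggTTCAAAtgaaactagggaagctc
Cdk1: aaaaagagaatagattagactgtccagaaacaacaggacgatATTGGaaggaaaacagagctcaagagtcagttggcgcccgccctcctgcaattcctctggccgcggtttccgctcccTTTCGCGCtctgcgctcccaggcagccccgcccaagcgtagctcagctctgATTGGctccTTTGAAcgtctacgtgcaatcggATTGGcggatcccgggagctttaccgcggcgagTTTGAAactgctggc
Ccnb2: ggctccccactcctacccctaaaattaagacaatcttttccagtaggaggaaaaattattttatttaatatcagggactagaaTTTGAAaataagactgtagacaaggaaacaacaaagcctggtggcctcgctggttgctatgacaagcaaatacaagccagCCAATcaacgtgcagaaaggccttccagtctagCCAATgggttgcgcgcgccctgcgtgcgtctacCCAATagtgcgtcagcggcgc
Cenpf: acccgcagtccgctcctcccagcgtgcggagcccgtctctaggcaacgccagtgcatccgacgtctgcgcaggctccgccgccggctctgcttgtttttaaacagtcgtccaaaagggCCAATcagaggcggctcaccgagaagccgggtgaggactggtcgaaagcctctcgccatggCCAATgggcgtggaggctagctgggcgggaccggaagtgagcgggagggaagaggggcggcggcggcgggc
Cdkn1a: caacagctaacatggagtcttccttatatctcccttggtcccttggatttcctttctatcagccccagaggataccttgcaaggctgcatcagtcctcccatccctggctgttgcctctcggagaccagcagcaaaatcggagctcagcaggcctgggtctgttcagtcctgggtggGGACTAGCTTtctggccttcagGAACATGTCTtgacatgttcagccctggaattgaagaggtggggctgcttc

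Promoters of 30 of the 38 genes were in the RefSeq table, and those of Mcm4, Ccnd1, Ccne2, Foxm1, Tpx2, Aurkb, Ccna2 and Ccnd2 are not shown. The CHR letters were found upstream of 11 of the 30 genes, against 17.1% of all 32851 mouse promoters of the same length. They were present in the sequences of Mki67, Top2a, Cdk1 and Ccnb2 and not in the windows of Cenpf and Cdkn1a. Of the other genes with these letters, Cdc45, Mcm7 and Ube2c were lower in every reperfused heart, and Bub1b, Cdc20, Kif11 and Mcm2 were not. Rrm2 and Bub1 were lower in every reperfused heart and lacked these letters. The letters thus did not separate the courses fully, and whether they go with a course was not tested. CCAAT was found upstream of 24 of the 30 genes, against 33.8% of all promoters, and of all 5 G2/M genes in the table. The E2F letters were upstream of 6 genes (Cdc6, Cdk1, Cdk2, Mcm5, Mcm6 and Mcm7), against 1.86% of all promoters. The p53 decamer was upstream of 4 genes (Birc5, Bub1b, Cdkn1a and Tyms), against 7.13% of all promoters. Cdkn1a and Mcm7 each had a further window, and a gene was counted if any window matched, whereas the shares are per promoter. The further window of Cdkn1a, at chr17:29093519-29093768, held no decamer. For Mcm7 the CHR and E2F letters lay at chr5:138171884-138172133 and not at chr5:138171267-138171516. A match of letters is a description of the sequence and not evidence of binding.

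The libraries held between 17119454 and 22811295 counts, so that 3 counts corresponded to 0.132 to 0.175 CPM, counts scaled to the library total, and these limits cover counting error only. The leading principal component, with 66.7% of the variance, did not follow the labels. On it MIRI 2 and GXNI 1 stood at -40.6 and -40.4, near sham at -55.5 to -48.8, and the other reperfused hearts at 16.6 to 88. By Spearman correlation across genes, MIRI 2 lay closest to GXNI 1 (rho 0.982), GXNI 1 closest to sham 1 (rho 0.984) and GXNI 3 closest to MIRI 3 (rho 0.987). The fold changes tabulated by the study are obtained from these counts with DESeq2 when MIRI 2 and GXNI 3 are exchanged between the groups. Values under the deposited labels are therefore given first, and those without both libraries or with both exchanged are given beside them. The comparison of all 6 reperfused hearts with sham does not depend on this exchange, but it includes MIRI 2 and GXNI 1, which lay near sham.

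At these depths the mitotic genes were counted at low levels. Per kb of exon, the mean sham level of the G1 and replication genes ran from 0.134 CPM for Cdc6 to 16.3 CPM for Pcna, and that of the mitotic genes and proliferation markers from 0.0495 CPM for Ccnb1 to 0.612 CPM for Cenpf. Cdkn1a, at 15.9 CPM per kb, stood next to Pcna. How reads from exon sequence shared between genes were counted is not known, since the counting settings are not given. Of the 38 genes, 13 share exon sequence with another annotated gene, on the opposite or the same strand. Among them are Ccna2 with Exosc9, Cdc45 with Ufd1, Ccne2 with Ints8, Ube2c with Tnnc2, Ccnd1 with LTO1, and Mcm7 with Cops6, Ap4m1, Mir25 and Mir93.

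**Figure D1:**
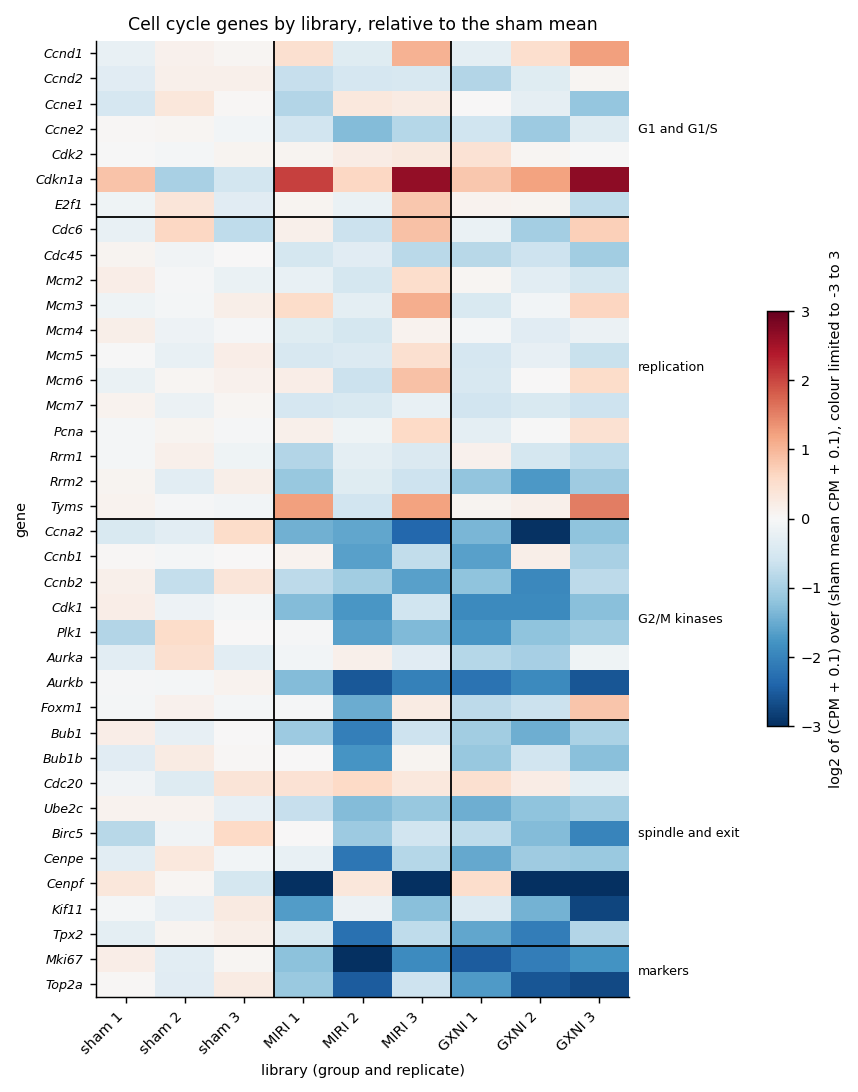
Levels of the 38 genes (vertical axis, grouped by role) in the 9 libraries (horizontal axis), as the log2 of CPM plus 0.1 over the sham mean plus 0.1, with blue below and red above the sham mean. Mki67, Top2a, Cdk1 and Aurkb are below the sham mean in all 6 reperfused libraries, and Cdkn1a and Tyms are highest in MIRI 1, MIRI 3 and GXNI 3.

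All 6 reperfused hearts were first compared with sham. The GXNI hearts among them had also received the drug, and the fit held no term for it. The comparison therefore does not separate ischemia and reperfusion from the drug. Some transcripts of proliferation, mitosis and DNA synthesis were lower in reperfused than in sham hearts, and others were not called. Of the 38 genes, 8 were called lower (fold of at least 1.5 and unadjusted p of at most 0.01 in edgeR's quasi-likelihood test) and 0 higher, against 2.85% of all 15207 genes tested that were called lower and 5.52% called higher. The 8 genes were Mki67, Top2a, Aurkb, Ccna2, Cdk1, Rrm2, Ccne2 and Cdc45, of which the first 5 are among the 19 mitotic genes and markers. Aurkb, Ccna2 and Cdk1 would not have passed the low-count filter on the reperfused libraries alone, so that their calls are no independent support. Without the filter, 7 of all 38 genes were called lower (Ube2c in addition, Ccne2 and Cdc45 no longer) and 1 higher (Cdkn1a), against 2.24% and 4.18% of 29344 genes. With an adjusted p of at most 0.05, 0 of the 38 passed, against 0.0592% of all genes, and the lowest adjusted p was 0.0546 for Mki67 and Aurkb (Benjamini-Hochberg, edgeR's quasi-likelihood test). Without the filter these 2 genes passed it, against 0.341% of all genes. The 29344 genes are all those with any count, so that the shares without the filter are not matched for level. In this bulk tissue, fewer cells of a type and less RNA per cell cannot be told apart.

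Mki67, which encodes the Ki-67 protein coating mitotic chromosomes, lies on chromosome 7 of GRCm38 from 135689784 to 135716361. It had 101, 76 and 91 counts in the sham hearts, 41, 8 and 28 in MIRI 1 to 3, and 15, 21 and 22 in GXNI 1 to 3. All 6 reperfused hearts lay below all 3 sham hearts, and the lowest count was in MIRI 2. The level was 4.68 ± 0.843 CPM (SD, n = 3) in sham and 1.11 ± 0.496 CPM (SD, n = 6) in reperfused hearts. The log2 fold change was -2.06 (standard error 0.35, unadjusted p = 0.000149 in edgeR's quasi-likelihood test), or 4.18-fold lower.

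Top2a encodes topoisomerase II alpha, which untangles replicated chromosomes, and lies on chromosome 11 from 98992943 to 99024189. Its counts were 54, 45 and 63 in sham, 27, 7 and 42 in MIRI 1 to 3, and 16, 8 and 6 in GXNI 1 to 3. The groups did not overlap, although MIRI 3 came close to the lowest sham heart. The log2 fold change was -1.73 (standard error 0.49, unadjusted p = 0.00562).

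Among the G2/M genes, Aurkb had the largest difference. It encodes Aurora B, the kinase that corrects kinetochore attachment, and had 15, 16 and 17 counts in sham, 6, 1 and 3 in MIRI 1 to 3, and 2, 3 and 1 in GXNI 1 to 3. The sham hearts were within 2 counts of each other and every reperfused heart was below them. The log2 fold change was -2.60 (standard error 0.42, unadjusted p = 0.000113). Cdk1, the kinase that starts mitosis, had 18, 15 and 15 counts in sham, 6, 3 and 12 in MIRI 1 to 3, and 3, 3 and 5 in GXNI 1 to 3, at a log2 fold change of -1.64 (standard error 0.41, unadjusted p = 0.00246). Ccna2, the cyclin of S phase and early mitosis, had 14, 17 and 30 counts in sham, 7, 5 and 3 in MIRI 1 to 3, and 7, 1 and 7 in GXNI 1 to 3, at a log2 fold change of -2.03 (standard error 0.50, unadjusted p = 0.00227). For both genes the sham hearts were above all reperfused hearts.

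The other G2/M genes did not pass the test. Ccnb2, a B-type cyclin, had 10, 5 and 12 counts in sham and 5, 3, 2, 3, 1 and 4 in the reperfused hearts, and did not overlap between the groups on the CPM scale. Its partner in role Ccnb1 had 4 counts in each sham heart and 5, 0, 2, 0, 5 and 1 in the reperfused ones. Both were under the filter on low counts. Plk1, the polo-like kinase of mitotic entry, overlapped in 1 reperfused heart (MIRI 1, 12 counts, against 5, 18 and 11 in sham), at a log2 fold change of -1.30 (standard error 0.56, unadjusted p = 0.0422). Aurka, the kinase of centrosome maturation, and Foxm1, the transcription factor of G2/M genes, overlapped with sham. Their log2 fold changes were -0.36 (standard error 0.37) for Aurka and -0.14 (standard error 0.52) for Foxm1.

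At the spindle and kinetochore, Tpx2, which nucleates spindle microtubules, had 14, 20 and 20 counts in sham, 14, 2 and 12 in MIRI 1 to 3, and 5, 3 and 8 in GXNI 1 to 3. Its log2 fold change of -1.35 (standard error 0.48, unadjusted p = 0.0182) missed the threshold, and its CPM did not overlap between the groups. Ube2c, the ubiquitin-conjugating enzyme of the anaphase-promoting complex, had 12, 13 and 9 counts in sham and 7, 3, 5, 3, 4 and 4 in the reperfused hearts, and Bub1, a kinase of the spindle checkpoint, had 7, 5 and 6 against 2, 0, 4, 2, 1 and 2. Both were under the filter and were below every sham heart in all 6 reperfused hearts. Cenpe, a kinetochore motor, Kif11, the motor that separates the spindle poles, Birc5, the survivin of the Aurora B complex, and Bub1b, the checkpoint protein BubR1, had log2 fold changes between -1.26 and -0.65. In each of these 4 genes at least 1 reperfused heart overlapped with sham and the gene was not called. Cdc20 had the opposite sign, with 15, 13 and 22 counts in sham, 26, 23 and 26 in MIRI 1 to 3, and 25, 21 and 12 in GXNI 1 to 3 (log2 fold change 0.35, standard error 0.30, unadjusted p = 0.27). Its exons overlap Elovl1 on the opposite strand.

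**Figure D2:**
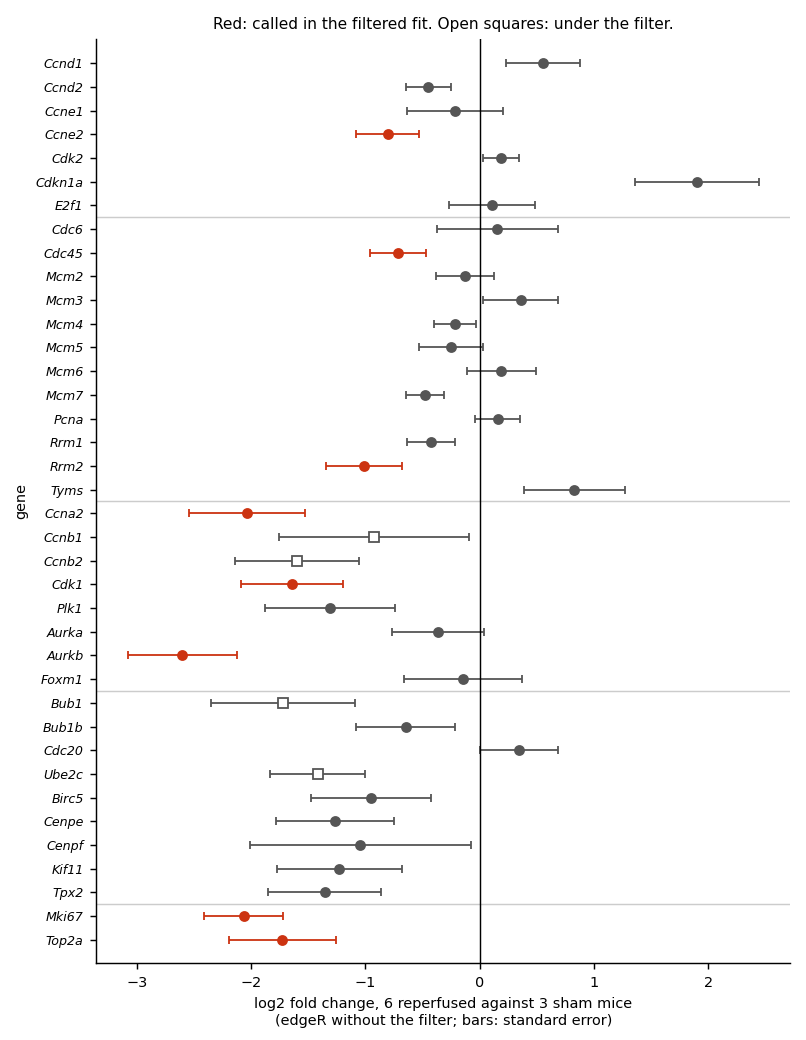
Log2 fold change of each of the 38 genes (vertical axis, grouped by role) in 6 reperfused against 3 sham hearts, with bars of 1 standard error, from the fit without the filter on low counts so that all 38 have a value. Red marks the 8 genes called with the filter, all below 0, and open squares mark the 4 genes under the filter.

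Of the replication genes, those that supply precursors or load the helicase did not move as 1 group. Rrm2, the S-phase subunit of ribonucleotide reductase, had 43, 35 and 46 counts in sham, 20, 28 and 32 in MIRI 1 to 3, and 18, 12 and 17 in GXNI 1 to 3 (log2 fold change -1.01, standard error 0.31, unadjusted p = 0.00939). Cdc45, which joins the MCM helicase at the fork, had 61, 58 and 59 counts in sham, 45, 41 and 40 in MIRI 1 to 3, and 34, 40 and 25 in GXNI 1 to 3 (log2 fold change -0.71, standard error 0.20, unadjusted p = 0.00616). Both genes were lower in every reperfused heart than in every sham heart. Mcm7, a helicase subunit, also did not overlap, but its log2 fold change of -0.47 (standard error 0.14, unadjusted p = 0.00616) was under 1.5-fold. Mcm2, another subunit, was at 7.20 ± 1.0 CPM (SD, n = 3) in sham and 6.59 ± 2.06 CPM (SD, n = 6) in reperfused hearts (log2 fold change -0.12, standard error 0.25, unadjusted p = 0.629). Pcna, the sliding clamp of the polymerase, was at 39.0 ± 1.88 and 43.6 ± 10.7 CPM (log2 fold change 0.16, standard error 0.20, unadjusted p = 0.429). The differences of Mcm2 and Pcna were smaller than the SD among the reperfused hearts, although that of Pcna was larger than the sham SD. Of the remaining replication genes, Rrm1, the large subunit of ribonucleotide reductase, was below sham in 5 of 6 reperfused hearts (log2 fold change -0.42, standard error 0.21), and Cdc6, Mcm4, Mcm5 and Mcm6 lay between -0.25 and 0.19, with no call.

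In G1, Ccne2, the E-type cyclin that activates CDK2, had 50, 55 and 46 counts in sham, 37, 17 and 33 in MIRI 1 to 3, and 34, 24 and 34 in GXNI 1 to 3. All reperfused hearts were below sham, at a log2 fold change of -0.80 (standard error 0.24, unadjusted p = 0.0078). Ccnd2, a D-type cyclin, was at 86.9 ± 16.3 CPM (SD, n = 3) in sham and 63.9 ± 15.1 CPM (SD, n = 6) in reperfused hearts (log2 fold change -0.44, standard error 0.20, unadjusted p = 0.0514), and 5 of 6 reperfused hearts were below sham. Ccnd1, the other D-type cyclin among the genes examined, had 346, 478 and 426 counts in sham, 651, 281 and 1043 in MIRI 1 to 3, and 356, 621 and 877 in GXNI 1 to 3 (log2 fold change 0.56, standard error 0.35, unadjusted p = 0.143). It was above sham in 4 reperfused hearts and below it in MIRI 2 and GXNI 1. The kinase Cdk2, its partner cyclin Ccne1 and the factor E2f1 had log2 fold changes between -0.21 and 0.19 and were not called. Cdkn1a had the largest positive value of the genes tested and was not called, at 1894, 579 and 727 counts in sham, 5019, 1456 and 8224 in MIRI 1 to 3, and 1980, 2626 and 6225 in GXNI 1 to 3. Its log2 fold change was 1.90 (standard error 0.61, unadjusted p = 0.0111). MIRI 2 and GXNI 1 lay below the highest sham heart on the CPM scale, and sham 1 was the highest of the sham hearts. Cdkn1a passed the thresholds when the low-count filter was left out (unadjusted p = 0.00384 in edgeR's quasi-likelihood test) and in DESeq2 (unadjusted p = 0.00044).

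Of the 34 genes that passed the low-count filter, 8 would not have passed on the reperfused libraries alone (Ccna2, Cdk1, Plk1, Aurkb, Birc5, Cenpe, Kif11 and Tpx2), so that the filter itself favoured genes that were higher in sham. Medians by role are therefore given over all 38 genes from the fit without the filter, as a description. The median log2 fold change was -1.90 for the 2 markers, -1.45 for 8 G2/M genes, -1.23 for 9 spindle genes, -0.17 for 12 replication genes and 0.11 for 7 G1 genes, against 0.07 for all genes. Over all 38 genes without any filter, 13 were lower in each of the 6 reperfused hearts than in each sham heart and 0 were higher. Of 29344 genes with any count, 5.11% were lower and 4.73% higher. Only 15207 of those genes passed the low-count filter, so that these shares are not matched to the 38 genes for level. The number called lower was 3 without sham 1, 4 without sham 3, 5 without GXNI 1 and 4 without GXNI 2. It was 7 without both MIRI 2 and GXNI 3, against 3.24% of all genes. For the fits without 1 library the share of all genes is not given. Their counts cannot show whether these genes lost calls more than all genes did. Cdkn1a was called higher without sham 1, without MIRI 2 or without GXNI 1.

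Summed over all 19 mitotic genes and markers, the level was 30.9, 28.3 and 28.4 CPM in the sham hearts, 12.4, 18.2 and 11.3 CPM in MIRI 1 to 3, and 20.5, 6.70 and 8.19 CPM in GXNI 1 to 3. Every reperfused heart was below sham and their mean was 2.26-fold lower, with MIRI 2 and GXNI 1 the highest of the 6. Cenpf made up most of the sum in those libraries. Without it, a choice made after its values were seen, the sum of 18 genes was 18.9, 18.5 and 22.0 CPM in sham, 12.1, 6.18 and 10.5 CPM in MIRI 1 to 3, and 6.89, 6.36 and 7.55 CPM in GXNI 1 to 3, or 2.39-fold lower. The summed level of 10 neutrophil markers was 29.1 to 56.0 CPM in sham, 717, 26.8 and 645 CPM in MIRI 1 to 3, and 48.9, 219 and 680 CPM in GXNI 1 to 3, and no marker was at 0 in all libraries. MIRI 2 and GXNI 1, with neutrophil markers no higher than in sham, thus had the highest mitotic sums of the reperfused hearts with Cenpf and sums within the range of the others or below it without Cenpf. Atrial markers summed to 40.3 to 84.0 CPM in sham, to 259, 171 and 667 CPM in MIRI 1 to 3 and to 55.9, 98.9 and 729 CPM in GXNI 1 to 3, a mean 5.11-fold higher in reperfused hearts, and GXNI 1 was the 1 reperfused heart within the sham range. Erythroid markers summed to 136 to 314 CPM in sham and 162 to 397 CPM in reperfused hearts. Of the other marker lists, cardiomyocyte markers summed to 31290 to 34170 CPM in sham and 21770 to 36380 CPM in reperfused hearts, fibroblast markers to 684 to 747 and 414 to 868 CPM, endothelial markers to 496 to 728 and 545 to 967 CPM, mural markers to 934 to 1173 and 508 to 980 CPM, monocyte and macrophage markers to 469 to 563 and 325 to 660 CPM, and lymphocyte markers to 1.02 to 4.36 and 0.649 to 5.96 CPM. Mesothelial markers reached 76.1 CPM in GXNI 1 and adipocyte markers 4.33 CPM in MIRI 2. The part of these lists in the result was not tested.

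**Figure D3:**
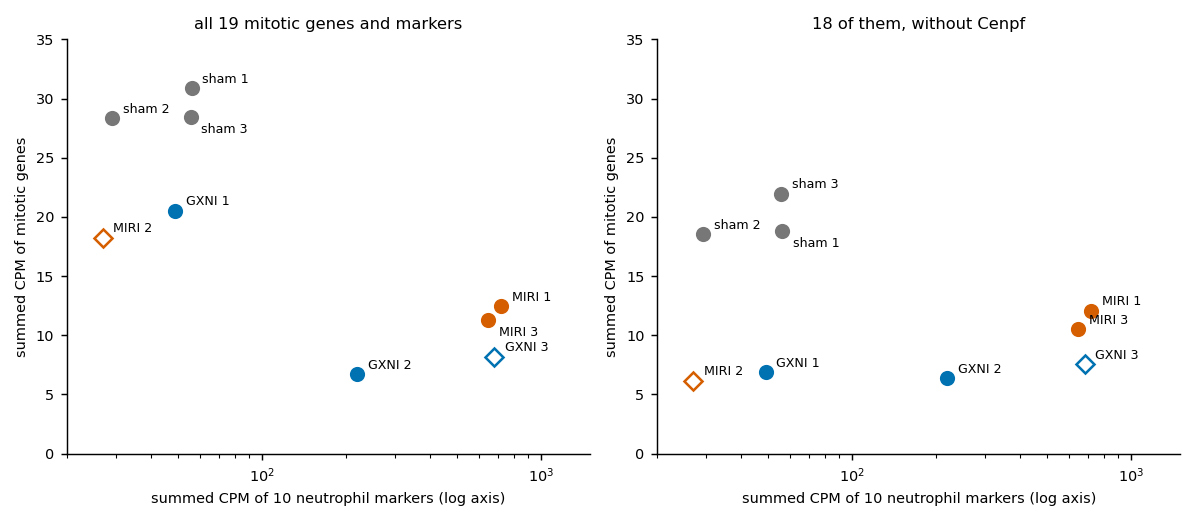
Summed CPM of all 19 mitotic genes and markers (left, vertical axis) and of 18 without Cenpf (right) against summed CPM of 10 neutrophil markers (horizontal log axes) in the 9 libraries, with open diamonds for those labelled MIRI 2 and GXNI 3. All reperfused hearts lie below all sham hearts in both panels, and MIRI 2 and GXNI 1 are the highest reperfused hearts on the left, at 18.2 and 20.5 CPM, and at 6.18 and 6.89 CPM on the right.

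Cenpf, which encodes a large kinetochore protein, differed widely among the reperfused hearts. It had 224, 198 and 122 counts in sham, 8, 203 and 19 in MIRI 1 to 3, and 273, 7 and 11 in GXNI 1 to 3. MIRI 2 and GXNI 1 were in or above the sham range, at 12.1 and 13.6 CPM, and the other 4 reperfused hearts were at 0.345 to 0.815 CPM. The log2 fold change over all reperfused hearts was -1.03 with a standard error of 1.11. Kif11 had the same order at lower counts, with 17, 16 and 22 in sham, 14 in MIRI 2 and in GXNI 1, and 1 to 8 in the other 4 reperfused hearts. Tyms, the thymidylate synthase, was highest in MIRI 1, MIRI 3 and GXNI 3, with 33, 32 and 29 counts in sham, 85, 18 and 91 in MIRI 1 to 3, and 35, 37 and 85 in GXNI 1 to 3. Mcm3, a helicase subunit, had 98, 112 and 124 counts in sham, 184, 80 and 290 in MIRI 1 to 3, and 84, 112 and 158 in GXNI 1 to 3, and was highest in the same libraries. Over all reperfused hearts the log2 fold changes were 0.83 (standard error 0.47) for Tyms and 0.36 (standard error 0.34) for Mcm3, and neither was called.

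**Figure D4:**
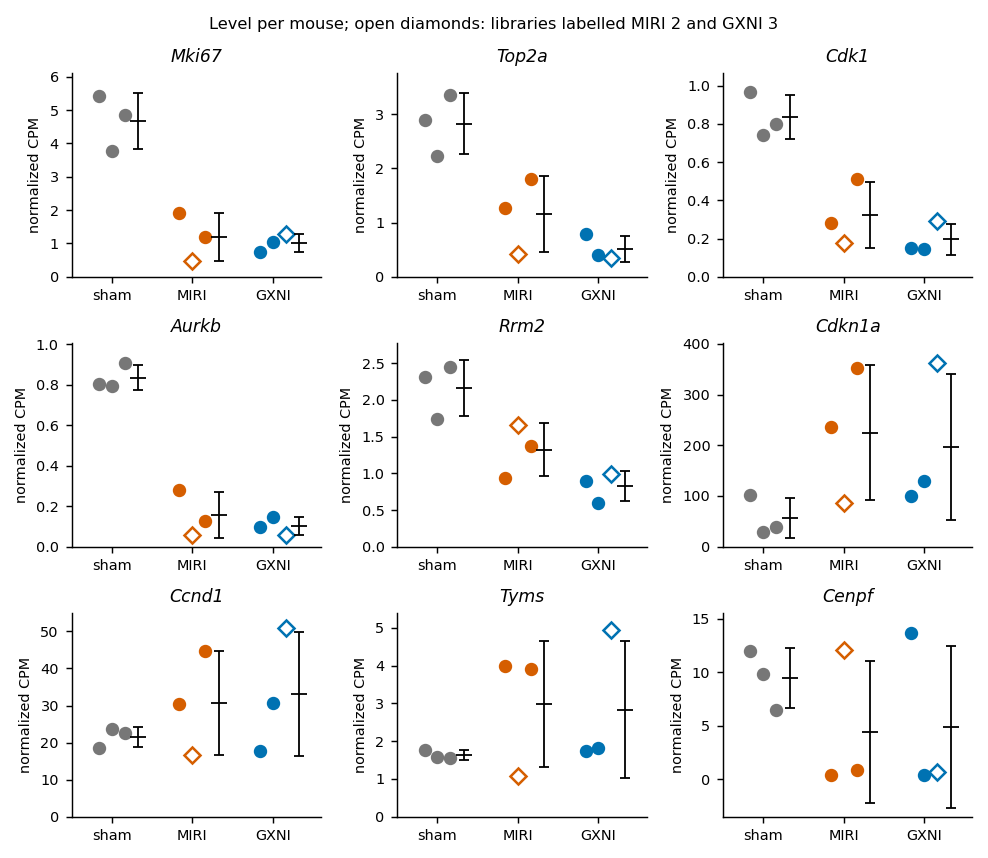
Normalized CPM (vertical axes) per mouse in the sham, MIRI and GXNI groups for 9 genes, with the mean and SD of each group (n = 3) in black and open diamonds for the libraries labelled MIRI 2 and GXNI 3. For Mki67, Top2a, Cdk1, Aurkb and Rrm2 all reperfused points lie below all sham points, whereas for Cdkn1a, Ccnd1 and Tyms MIRI 2 is the lowest of its group and GXNI 3 the highest, and for Cenpf MIRI 2 and GXNI 1 lie apart at 12.1 and 13.6 CPM.

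The MIRI hearts were then compared with sham alone, to ask what ischemia and reperfusion did without the drug. Of the 34 genes tested, 3 were called lower and 0 higher, against 2.82% and 6.15% of all 14644 genes tested. The 3 were Aurkb (log2 fold change -2.32, standard error 0.51, unadjusted p = 0.00263), Mki67 (-1.93, standard error 0.46, unadjusted p = 0.00402) and Ccna2 (-2.07, standard error 0.51, unadjusted p = 0.00491), by edgeR's quasi-likelihood test. None of the 3 would have passed the low-count filter on the MIRI libraries alone, since MIRI held 0 libraries over the minimum for Aurkb and Ccna2 and 2 for Mki67. Top2a (-1.25, standard error 0.49, unadjusted p = 0.037) and Cdk1 (-1.30, standard error 0.45, unadjusted p = 0.0225) were not called. The log2 fold change was 2.0 for Cdkn1a (standard error 0.64, unadjusted p = 0.0165), for Ccnd1 0.51 (standard error 0.34), for Ccnd2 -0.55 (standard error 0.17), for Pcna 0.25 (standard error 0.20) and for Mcm2 -0.0026 (standard error 0.30), and none of these was called. These calls changed when the library labelled MIRI 2 was left out, and so did the calls over all genes. Without it 6 genes were called lower (Mki67, Aurkb, Ccna2, Rrm1, Kif11 and Cenpf) and 4 higher (Cdkn1a, Ccnd1, Mcm3 and Tyms). The shares of all genes called were then 13.3% and 16.9%, against 2.82% and 6.15% with it. Aurkb, Ccna2, Kif11 and Cenpf would again not have passed the low-count filter on the MIRI libraries alone. The number called lower was 1 without sham 2, 0 without sham 3 and 1 without MIRI 3. The share of all genes called in these fits is not given. Cdkn1a was called higher without sham 1.

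With MIRI 2 and GXNI 3 exchanged, 8 genes were called lower and 4 higher in MIRI than in sham, against 16.6% and 19.2% of 14853 genes tested. Those lower were Mki67, Aurkb, Ccna2, Kif11, Cenpf, Rrm1, Rrm2 and Cdc45, and those higher were Cdkn1a, Ccnd1, Mcm3 and Tyms. Aurkb, Ccna2, Kif11 and Cenpf would not have passed the low-count filter on these MIRI libraries alone. Their calls are no independent support. Cenpf had the largest difference, -3.94 on the log2 scale (standard error 0.34, adjusted p = 6.6e-05, edgeR's quasi-likelihood test), and Cdkn1a followed at 2.49 (standard error 0.44, adjusted p = 0.00174). Under this grouping the MIRI hearts held 8, 19 and 11 counts of Cenpf and 5019, 8224 and 6225 counts of Cdkn1a, and did not overlap with sham for either gene. Mki67 was lower under both groupings, at -1.67 (standard error 0.26, adjusted p = 0.000979) after the exchange.

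In GXNI against sham hearts, 7 genes were called lower and 0 higher among 31 tested, against 1.54% and 2.67% of all 14695 genes tested. All comparisons with sham share the same 3 sham libraries, so that their values are not independent. The 7 genes were Aurkb (log2 fold change -2.92, standard error 0.44, unadjusted p = 0.000321), Top2a (-2.43, standard error 0.40, unadjusted p = 0.000521), Mki67 (-2.19, standard error 0.30, unadjusted p = 0.000186), Cdk1 (-2.07, standard error 0.42, unadjusted p = 0.00185), Tpx2 (-1.70, standard error 0.47, unadjusted p = 0.00886), Rrm2 (-1.38, standard error 0.32, unadjusted p = 0.00374) and Cdc45 (-0.85, standard error 0.24, unadjusted p = 0.00982), by edgeR's quasi-likelihood test. The GXNI hearts were below all sham hearts for each of them. Cdk1, Aurkb, Tpx2 and Top2a would not have passed the low-count filter on the GXNI libraries alone. Cdkn1a was at 1.81 (standard error 0.65, unadjusted p = 0.0279), Ccnd1 at 0.62 (standard error 0.36), Ccnd2 at -0.33 (standard error 0.27), Pcna at 0.09 (standard error 0.20) and Mcm2 at -0.24 (standard error 0.22), and none was called. The number called lower was 4 without sham 1, 4 without sham 3 and 3 without GXNI 2. The share of all genes called in these fits is not given. Cdkn1a was called higher without sham 1 or without GXNI 1. With MIRI 2 and GXNI 3 exchanged, 7 genes were called lower and 0 higher, against 1.56% and 2.16% of 14599 genes. Ccne2 and Ccna2 were now called in place of Rrm2 and Cdc45. Of these 7 genes, only Ccne2 would have passed the low-count filter on the GXNI libraries of this grouping alone. The other calls are no independent support. Cdkn1a was at 0.90 (standard error 0.44) and Ccnd1 at 0.01 (standard error 0.24) under the exchange.

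Whether the drug changed these genes was asked by comparing GXNI with MIRI hearts. Under the deposited labels 0 of 26 genes tested were called in either direction by edgeR's quasi-likelihood test, against 0% of all 14762 genes called higher and 0.0203% called lower. None of the 26 reached an unadjusted p under 0.05, and DESeq2 also called 0, against 0.0142% higher and 0.0249% lower of all genes. The log2 fold changes were -1.16 (standard error 0.63, unadjusted p = 0.108) for Top2a, -0.24 (standard error 0.54) for Mki67, -0.18 (standard error 0.64) for Cdkn1a, 0.12 (standard error 0.47) for Ccnd1, 0.22 (standard error 0.25) for Ccnd2, -0.16 (standard error 0.27) for Pcna and -0.23 (standard error 0.33) for Mcm2. Each was within 2 standard errors of 0. A value that misses the threshold does not show that the groups were alike. Of the 19 mitotic genes and markers, only Mki67, Top2a, Aurka, Foxm1, Bub1b, Cdc20 and Cenpf passed the filter here, and Aurkb, Ccna2 and Cdk1 had counts of 1 to 12 in the 6 hearts.

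With MIRI 2 and GXNI 3 exchanged, 5 genes were lower in GXNI than in MIRI hearts (Cdkn1a, Tyms, Mcm3, Ccnd1 and Mcm6) and 1 was higher (Cenpf), against 10.7% and 8.56% of all genes tested. The log2 fold change was then -1.58 (standard error 0.22, adjusted p = 0.0143) for Cdkn1a, -1.44 (standard error 0.28, adjusted p = 0.0178) for Tyms, -1.05 (standard error 0.21, adjusted p = 0.0185) for Mcm3, -0.94 (standard error 0.27, adjusted p = 0.0423) for Ccnd1, -0.91 (standard error 0.24, adjusted p = 0.0308) for Mcm6 and 3.82 (standard error 1.06, adjusted p = 0.037) for Cenpf, by edgeR's quasi-likelihood test. The counts of Cdkn1a under this grouping were 5019, 8224 and 6225 in MIRI and 1980, 2626 and 1456 in GXNI. For Cenpf the GXNI counts were 273, 7 and 203, so that GXNI 2 remained at the level of the MIRI hearts. Mki67 (-0.93, standard error 0.39, adjusted p = 0.108) and Top2a (-1.08, standard error 0.59, adjusted p = 0.201) were not called. With both libraries left out, Cdkn1a (-1.35, standard error 0.26, unadjusted p = 0.00227) and Mcm3 (-1.10, standard error 0.30, unadjusted p = 0.00993) were called lower and no gene was called higher, against 3.47% and 1.52% of 14984 genes.

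**Figure D5:**
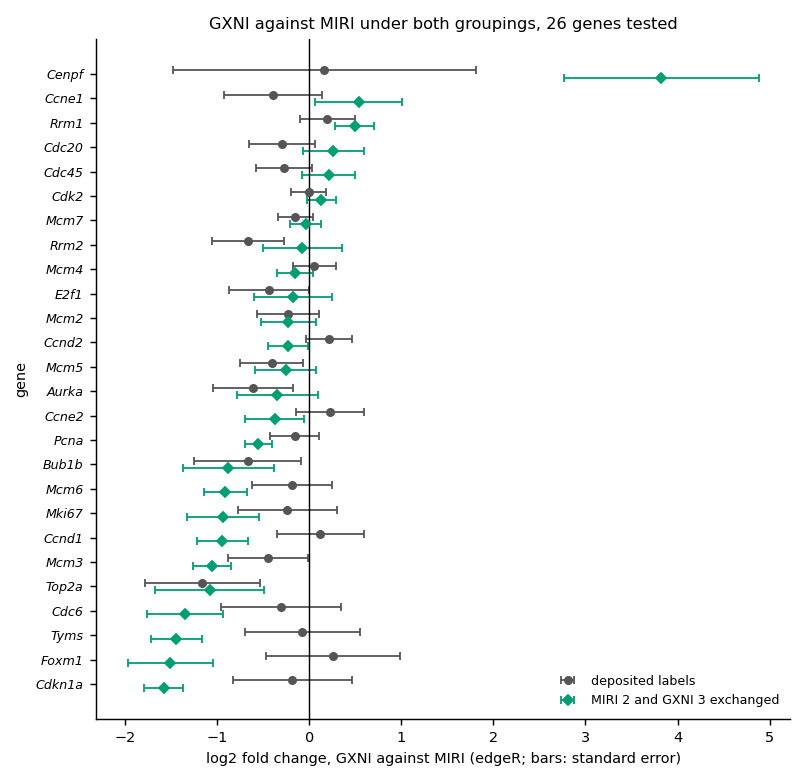
Log2 fold change of GXNI against MIRI hearts for the 26 genes tested (vertical axis), with bars of 1 standard error, under the deposited labels (circles) and with MIRI 2 and GXNI 3 exchanged (diamonds). Under the deposited labels the bars reach 0 for 20 of the 26 genes and none was called, and after the exchange Cenpf lies at 3.82 and Cdkn1a at -1.58.

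Beyond the 38 genes, 128 other genes of the cell cycle were listed by role. In reperfused against sham hearts 103 were tested, of which 3 were called higher and 8 lower, against 5.52% and 2.85% of all genes tested. Those higher were Plk3, a stress-activated polo-like kinase (log2 fold change 2.39, standard error 0.48), Btg2, an antiproliferative p53 target (1.90, standard error 0.46), and E2f4, a repressive E2F factor (0.90, standard error 0.27). The largest falls were in Kif23 and Racgap1, the partners of the centralspindlin complex of cytokinesis (-1.24, standard error 0.27, and -1.18, standard error 0.26), and in Lin9, a subunit of the MuvB complex that binds cell cycle promoters (-1.11, standard error 0.25). Of 48 genes of mitosis and cytokinesis 27 were tested and 5 were lower, and of 32 genes of origins and forks 31 were tested and 1 was lower, against the same 2.85% of all genes. How many of these other genes passed the low-count filter only through sham was not examined. Their calls lower are therefore a description and no independent support. In MIRI against sham 102 of the 128 were tested, with 4 called higher and 7 lower, against 6.15% and 2.82% of all genes. They included Gadd45g, a stress-induced growth arrest gene, at 2.80 (standard error 0.59) and Sgo2a, a shugoshin that protects centromeric cohesion, at -1.79 (standard error 0.51). In GXNI against sham 99 were tested, with 2 called higher and 7 lower, against 2.67% and 1.54% of all genes. Among them was Gmnn, the geminin that blocks relicensing, at -1.30 (standard error 0.32). In GXNI against MIRI edgeR called 0 in either direction, with 0 of 99 tested at an unadjusted p under 0.05, and DESeq2 also called 0.

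Regulators of p53 and of E2F were given by level. Trp53, which encodes p53, had 224, 246 and 283 counts in sham, 565, 242 and 813 in MIRI 1 to 3, and 346, 445 and 651 in GXNI 1 to 3 (log2 fold change in reperfused hearts 0.96, standard error 0.31, unadjusted p = 0.0111). MIRI 2 was within the sham range and the other 5 reperfused hearts were above it. Mdm2, the ligase that degrades p53, ran from 912 to 1062 counts in sham and from 926 to 2021 in the reperfused hearts (log2 fold change 0.39, standard error 0.19). Rb1, the pocket protein that binds E2F, ran from 450 to 564 and from 450 to 627 counts (-0.02, standard error 0.11). The inhibitors Cdkn1b and Cdkn1c, encoding p27 and p57, ran from 1156 to 1348 and from 675 to 1187 counts (-0.46, standard error 0.15), and from 186 to 366 and from 80 to 219 counts (-0.81, standard error 0.36). None of these 5 genes was called.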

How the data were processed

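RNA of 9 mouse hearts (3 sham, 3 MIRI and 3 GXNI) was sequenced. Reads with adapters, poly-N or low quality were discarded by the authors, who then used HISAT2 (mm10) and featureCounts of Subread to count reads per gene. The versions, annotation release and strand setting are not given in the sources used here. The deposited counts are whole numbers without normalization, 1 column per mouse. Symbols and coordinates come from GENCODE M21 (GRCm38), which paired 54409 of 54532 identifiers, and promoters from RefSeq.

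Groups follow the deposited labels. The 38 genes, the 128 other cell cycle genes and the 65 marker genes were chosen with earlier results of these data known. Counts were fitted over all genes with edgeR 4.0.16 in R 4.3.3 (TMM normalization, default filter on low counts with a minimum count of 10, quasi-likelihood F test, no covariate). Calls needed both a 1.5-fold difference and an unadjusted p no higher than 0.01, as in the study. Adjusted p values are Benjamini-Hochberg over all genes tested. Standard errors were taken as the log2 fold change over the root of its F statistic. TMM factors over the 9 libraries entered the CPM values. Fold changes with tests are printed for Mki67, Top2a, Ccnd1, Ccnd2, Cdkn1a, Cdk1, Pcna and Mcm2 in each comparison in which they were tested and for every other member where called, and values without a call are given to describe the rest. Of the other cell cycle genes, at most the 3 called genes with the largest rise and fall in each comparison were named.

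The labels of the libraries MIRI 2 and GXNI 3 were exchanged as an alternative. Other alternatives were DESeq2 1.42.0, RLE normalization, no filter, all 9 libraries in 1 fit, a replicate block, an adjusted p of at most 0.05 and each library left out in turn. The exchange with DESeq2 was added after the values were seen. On simulated counts with 200 changed genes, edgeR called 199 of them among 14816 genes in MIRI against sham and DESeq2 198. The changes were of 2 on the log2 scale, at a dispersion of 0.0209 taken from the sham libraries. Changed genes were drawn from genes with more counts than most mitotic genes had. The simulation therefore does not measure how often low-count genes, or genes that vary among reperfused hearts, would be called. No pair of libraries agreed within sampling noise (smallest chi-square per degree of freedom 13.2, between sham 2 and sham 3). The mice of a group are separate animals.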

Additional observations from a re-analysis of the deposited data

How the results depend on the processing

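RLE normalization and all 9 libraries in 1 fit kept each count of called genes within 1.5 times. The other settings changed counts, and the causes were not tested. With an adjusted p of at most 0.05, the genes called lower went from 3 to 0 in MIRI against sham, from 7 to 0 in GXNI against sham and from 8 to 0 in reperfused against sham hearts. DESeq2 and the fit without the filter called 1 gene higher, Cdkn1a, in each of these comparisons, and the replicate block called it in MIRI against sham, where it called 2 genes lower, and it called 5 lower in GXNI against sham. Deviations of same-numbered libraries from their group means correlated at -0.461, 0.151 and 0.726 in GXNI against MIRI for replicates 1 to 3. With 3 libraries a group, these values cannot show whether the numbers pair the mice. With the labels of MIRI 2 and GXNI 3 exchanged, edgeR called 4 genes higher and 8 lower in the MIRI and sham comparison and DESeq2 called 5 and 7, and for GXNI against MIRI both called 1 higher and 5 lower. With both libraries left out GXNI against MIRI gave 2 lower. Leaving out 1 library at a time gave 0 to 4 higher and 0 to 6 lower in MIRI against sham. It gave 0 to 1 and 3 to 7 in GXNI against sham and in reperfused against sham hearts. The share of all genes called is not given for most of these fits, so the ranges are a description only.

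Log2 fold changes near 0 changed sign. In MIRI against sham Mcm2 was 0.000282 with DESeq2 and -0.38 to 0.20 with libraries left out. In GXNI against MIRI the exchange gave -0.94 for Ccnd1 (-0.96 with DESeq2) and -0.23 for Ccnd2 (-0.25), and leaving out libraries gave -0.62 to 0.49 for Ccnd1, -0.0466 to 0.42 for Ccnd2, -1.35 to 0.29 for Cdkn1a, -0.43 to 0.13 for Mcm2, -0.54 to 0.0543 for Pcna and -0.79 to 0.28 for Mki67. In GXNI against sham Pcna was -0.14 after the exchange (-0.15 with DESeq2) and -0.15 to 0.25 with libraries left out. In reperfused against sham hearts Mcm2 was -0.296 to 0.0492 with libraries left out, the highest without both. The log2 fold changes of Mki67, Top2a and Cdk1 against sham, and those of Aurkb and Ccna2 where they were called, stayed below 0 under every alternative run. Most mitotic genes were counted only a few times per library in 3 mice a group, which limits the precision of their fold changes.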
